A study of Mus musculus with 4 samples.

Results

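The genes described here are the interferon-gamma-inducible GTPases together with the regulators, immunoproteasome subunits, peptide loading factors and molecules of MHC class I presentation, in mouse hearts with immune checkpoint inhibitor myocarditis. They are 34 of the 19465 genes in the deposited count matrices. They were chosen by name: 33 symbols were listed, and every symbol made of Gbp and a digit was taken, which added Gbp2b. No filter on measured values was applied, but the list was drawn up with earlier results of these data known. By role they are 9 guanylate-binding proteins (GBPs), 8 immunity-related GTPases (IRGs: Iigp1, Igtp, Irgm1, Irgm2, Ifi47, Gm12185, Gm4841 and F830016B08Rik), 4 regulators (Irf1, Irf8, Socs1 and Nlrc5), 5 proteasome genes, 3 peptide loading genes, 3 genes of the class I molecule (B2m, H2-K1 and H2-D1) and 2 other effectors (Ido1 and Ubd).

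The hearts came from wild type FVB/NJ mice. All were immunized with peptide from MyHCα, the alpha heavy chain of cardiac myosin, and all were given immune checkpoint inhibitors (ICI) against PD-1 and CTLA-4. In the ICI-alone group the labels record myocarditis. The remaining group, called the antibody group below, was in addition given an IL-17A neutralizing antibody, and the labels record milder myocarditis. Each group had 2 sections, replicate 1 from batch 1 and replicate 2 from batch 2. Hearts of unimmunized or untreated mice were not analysed here, so the levels have no healthy reference. Age, sex and doses are not stated in the labels. Nor do they say whether the 2 sections of a group came from separate animals, so the p-values measure only the spread between these sections.

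The assay was Visium, in which RNA of a formalin-fixed, paraffin-embedded section is read out on a grid of spots and counted as unique molecular identifiers (UMIs). A spot is a small region that can hold several cells. Spots in which Myh6, the alpha myosin heavy chain gene of heart muscle, gave 1% or more of the UMIs were taken as myocardial, and the rest as other spots. In a spot or a sum of spots, fewer cells of a type and less RNA per cell cannot be told apart.

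As background, interferon gamma is made by activated T cells and NK cells. Its receptor signals through the kinases JAK1 and JAK2, and the signal reaches genes with promoter sites called GAS. Irf1 is among the genes switched on, and IRF1 in turn binds sites called ISRE. GBPs and IRGs are GTPases that attack the membranes around intracellular pathogens. The same signal exchanges the catalytic subunits of the proteasome for Psmb8, Psmb9 and Psmb10, and raises the peptide transporter Tap1 and Tap2, its adaptor Tapbp, and the class I heavy chains with their light chain B2m. Socs1 is induced as well and restrains the receptor's kinases.

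A promoter window of 300 bases (250 before to 50 after the start of transcription) was found in the RefSeq table of GRCm38.p6 for 24 of the 34 members. Where a gene had several windows, the one listed first was used, for members and for all genes alike. The ISRE core GAAANNGAAA, searched on both strands, was in the window of 12 of these 24 members (50%), against 3.49% of the 27025 genes with a window. The GAS core TTCNNNGAA, which reads the same on both strands, was in that of 8 members (33.3%), against 8.47% of the genes. Both were in 5, which are Gbp5, Gbp7, Igtp, Irgm2 and Gm12185, against 0.514% of the genes. A match is a run of letters, not evidence of a bound site. Promoters of the FVB/NJ mice themselves were not read. The sequences below are 60 bases each of GRCm38.p6, written 5′ to 3′ on the gene's own strand, with matches to either core in capitals. They are shown because Igtp, Irgm2 and Gm12185 carry the same arrangement, a GAS core and then an ISRE core 2 bases on, whereas Irgm1, Socs1 and Gbp2 carry ISRE cores only and Irf1 a GAS core only.
Igtp (chr11:58199491-58199550, plus strand): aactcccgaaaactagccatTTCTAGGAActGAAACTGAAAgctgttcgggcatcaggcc
Irgm2 (chr11:58214882-58214941, plus strand): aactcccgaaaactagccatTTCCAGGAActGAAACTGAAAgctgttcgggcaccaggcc
Gm12185 (chr11:48927229-48927288, minus strand): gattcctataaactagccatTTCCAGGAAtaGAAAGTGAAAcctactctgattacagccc
Irgm1 (chr11:48871414-48871473, minus strand): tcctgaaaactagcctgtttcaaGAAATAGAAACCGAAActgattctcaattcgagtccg
Socs1 (chr16:10785583-10785642, minus strand): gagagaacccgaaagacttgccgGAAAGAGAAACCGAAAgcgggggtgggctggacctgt
Gbp2 (chr3:142620578-142620637, plus strand): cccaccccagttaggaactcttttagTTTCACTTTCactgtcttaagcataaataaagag
Irf1 (chr11:53769898-53769957, plus strand): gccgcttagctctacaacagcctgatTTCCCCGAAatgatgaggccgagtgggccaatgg
In Irgm1 and Socs1 the capitals are 2 overlapping ISRE cores, and in Gbp2 the ISRE core lies on the opposite strand.

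The GBP genes sit in 2 clusters, 5 of them on chromosome 3 between 142496934 and 142638008 and 4 on chromosome 5 between 105012513 and 105295871 (GRCm38.p6). Members within a cluster are similar in sequence, and with no probe list at hand it is open to doubt how far reads of close paralogs were separated. The same holds for the IRGs and for the class I heavy chains. Levels are therefore compared between samples for each gene, never between genes.

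The sections held 2503 to 3052 spots and 33005923 to 73167202 UMIs, and the ICI-alone sections were the deeper ones. Myocardial spots were 45.1% and 26.1% of the ICI-alone sections and 83.6% and 83% of the antibody sections. The labelled tissue was checked on 9 cardiomyocyte markers, all detected in every section. Since they include Myh6, which split the spots, their levels by position are a description: a summed 75149 to 95028 CPM (UMIs scaled to a common library total) in myocardial spots and 12663 to 28526 CPM in other spots. The 34 members gave 1.85%, 1.49%, 1.91% and 2.60% of the UMIs of ICI-alone replicates 1 and 2 and antibody replicates 1 and 2. In myocardial spots alone these shares were 1.38%, 0.499%, 1.71% and 2.48%, and the myocardium of ICI-alone replicate 2 stood apart by its low share. Antibody replicate 2 had 165 spots in which atrial genes other than Nppa gave over 0.5% of the UMIs, and the other sections had 0. Gbp8 gave 0 to 3 UMIs per section and was too low to test, so 33 members entered each test of whole sections and positions.

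Where in the heart the members were expressed was asked first, by comparing the other spots with the myocardial spots of the same section. The regulators, the peptide loading genes and nearly all GBPs were higher outside the myocardium, whereas most IRGs were not. Of the 33 members tested, 21 rose outside the myocardium and 0 fell. Of the 15544 genes tested, 28.3% rose. The median log2 ratio was 0.95 over the members and 0.09 over all genes (edgeR quasi-likelihood test with the section as a block, Benjamini-Hochberg adjustment). Below, "rose" means an adjusted p under 0.05, and CPM are scaled by TMM within each comparison.

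**Figure D1:**
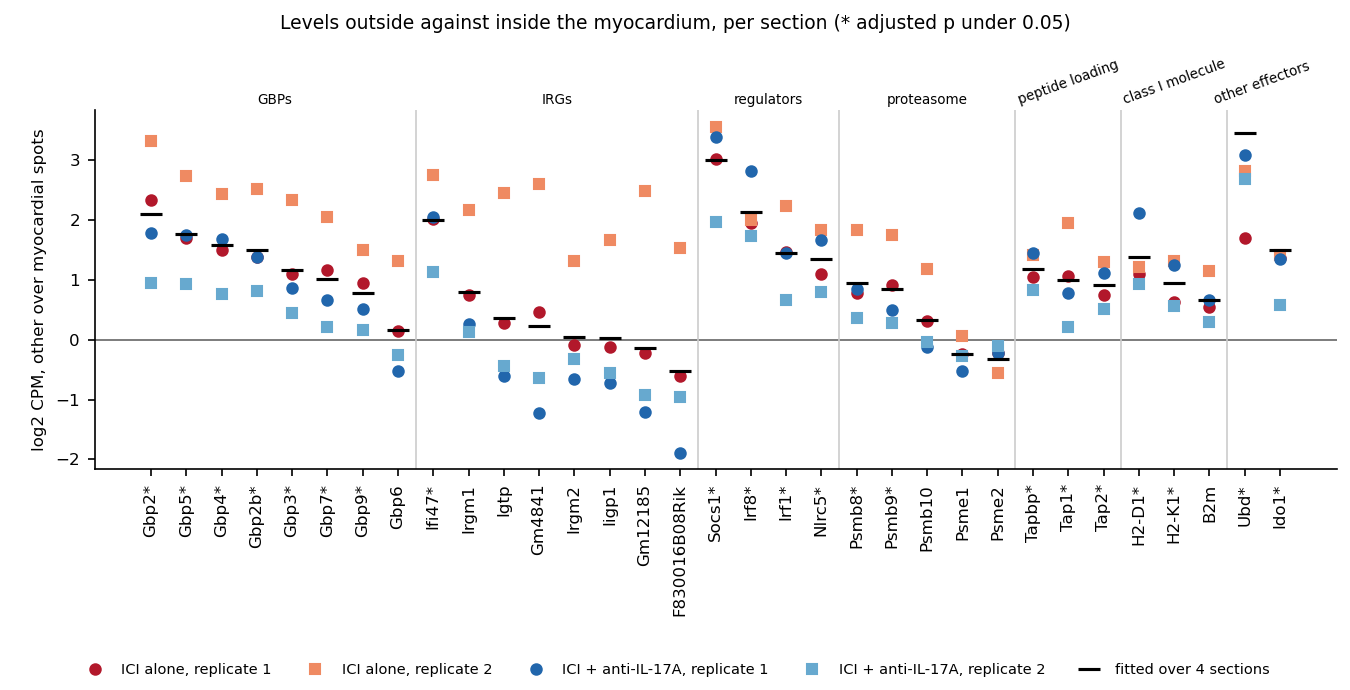
Log2 ratio of CPM in other over myocardial spots (0.5 CPM added) for the 33 tested members by role, with a symbol for each of the 4 sections and a bar for the ratio fitted over them. Asterisks mark an adjusted p under 0.05. Socs1 lies above 0 in every section, and 6 of the 8 IRGs lie above 0 in ICI-alone replicate 2 and below 0 in both antibody sections.

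Among the regulators, 4 of 4 rose outside the myocardium. Socs1, the feedback inhibitor of the receptor's kinases, stood at 22.5 and 15.5 CPM in ICI-alone myocardium and at 55.1 and 135 CPM in antibody-group myocardium. In the other spots it stood at 187 and 188 CPM and at 578 and 530 CPM. Every value in the other spots was above every value in the myocardium, and the fitted log2 ratio was 3.0 ± 0.28 (SE; adjusted p = 0.000327). Irf8, a transcription factor of myeloid cells that interferon gamma also induces, had a log2 ratio of 2.13 ± 0.20 (adjusted p = 0.000323). Its section ratios were 1.95, 2.00, 2.82 and 1.73. Irf1, a transcription factor that relays the interferon gamma signal, had a ratio of 1.45 and Nlrc5, the activator of class I genes, one of 1.35.

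Among the GBPs, 7 of 8 rose outside the myocardium, with a median log2 ratio of 1.33. Gbp2 was at 255, 116, 454 and 722 CPM in the myocardial spots of ICI-alone replicates 1 and 2 and antibody replicates 1 and 2, and at 1288, 1163, 1559 and 1393 CPM in the other spots. The myocardial values differed several-fold between sections while the other spots lay close together, so the section ratios ran from 0.95 to 3.32 around a fitted 2.09 ± 0.38 (adjusted p = 0.00312). Gbp5, which drives inflammasome activation in macrophages, had a ratio of 1.77, Gbp4 of 1.59, Gbp2b of 1.5, Gbp3 of 1.17, Gbp7 of 1.02 and Gbp9 of 0.77. Gbp6 was the exception. It had section ratios of 0.14, 1.31, -0.52 and -0.26 and a fitted ratio of 0.16 ± 0.30 (adjusted p = 0.683).

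Of the IRGs, 1 of 8 rose outside the myocardium, and the median log2 ratio was 0.13. That gene was Ifi47, with 79.7, 45.1, 109 and 180 CPM in the myocardium, 323, 308, 451 and 393 CPM outside it, and a ratio of 1.99 ± 0.26 (adjusted p = 0.000807). F830016B08Rik had 3571, 452, 4332 and 4756 CPM in the myocardial spots and 2357, 1308, 1167 and 2449 CPM in the other spots. It was lower outside the myocardium in 3 of 4 sections, with section ratios of -0.60, 1.53, -1.89 and -0.96. Igtp had section ratios of 0.28, 2.45, -0.61 and -0.44 and Gm4841 of 0.46, 2.59, -1.22 and -0.65. For these IRGs ICI-alone replicate 2 gave the highest ratio and both antibody sections a negative ratio, and the fitted values of 0.36 for Igtp, 0.22 for Gm4841 and -0.53 for F830016B08Rik did not pass the test (adjusted p = 0.586, 0.774 and 0.439). Irgm1, which guards the cell's own membranes against the effector IRGs, had a ratio of 0.80 (adjusted p = 0.0886), Irgm2 of 0.05, Iigp1 of 0.03 and Gm12185 of -0.15. Leaving out ICI-alone replicate 2 turned Igtp to -0.27, Gm4841 to -0.49, Irgm2 to -0.37 and Iigp1 to -0.48, none past the threshold, and brought Gm12185 to -0.81, the only member that fell (adjusted p = 0.0349).

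In the class I pathway the peptide loading genes rose outside the myocardium in 3 of 3 cases, Tapbp by 1.19, Tap1 by 1.00 and Tap2 by 0.92 on the log2 scale. Of the proteasome genes, 2 of 5 rose, the immunoproteasome subunits Psmb8 (0.95) and Psmb9 (0.85). Psmb10 had a ratio of 0.32. Psme1 and Psme2, subunits of the PA28 cap that is not confined to the immunoproteasome, had ratios of -0.25 and -0.33. Psme2 was measured at only 1.96 to 3.12 CPM. Of the class I molecule, H2-D1 (1.38) and H2-K1 (0.94) rose. B2m, the light chain that all class I molecules share, had 3438, 2021, 2827 and 3224 CPM in the myocardium and 4994, 4483, 4469 and 3939 CPM outside it. Those groups of spots did not overlap, yet the ratio of 0.66 ± 0.27 did not pass the test (adjusted p = 0.0725). H2-D1 was measured at only 8.12 to 44.1 CPM.

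Of the other effectors, both rose outside the myocardium. Ubd, a ubiquitin-like protein that marks proteins for the proteasome, was at 0.276, 0, 0.737 and 1.46 CPM in the myocardium and at 2.01, 3.02, 9.97 and 12.1 CPM outside it, a fitted log2 ratio of 3.45 ± 0.34 (adjusted p = 0.000359). The myocardium of ICI-alone replicate 2 held 0 UMIs of Ubd, so the fitted ratio depends on the prior count there. Ido1, an enzyme that breaks down tryptophan, had a ratio of 1.5.

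**Figure D2:**
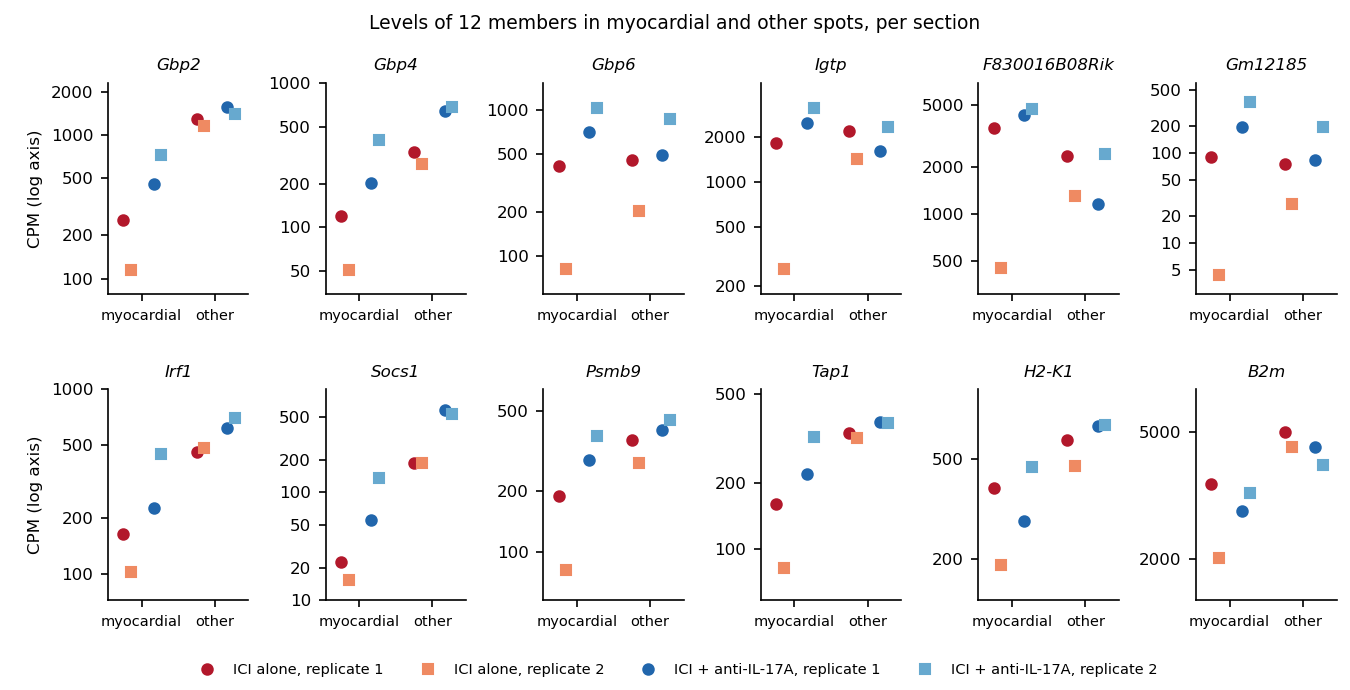
CPM on a log axis of 12 members in myocardial and other spots, 1 point per section. Socs1 and Gbp2 lie higher in other spots in every section, and ICI-alone replicate 2 has the lowest myocardial value in each panel.

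Of these 21 members, 16 kept an adjusted p under 0.05 in all 12 alternative analyses. Gbp7, Gbp9, Psmb8, Psmb9 and Tap1 lost it without ICI-alone replicate 2. All of these but Psmb8 also lost it without ICI-alone replicate 1, and Gbp9 also at Myh6 0.5%. Immune cell markers moved with position as well. The summed 12 T cell markers were at 35.2 to 78.3 CPM in myocardial spots and 110 to 400.1 CPM in other spots, with 0 markers undetected, and 11 of 12 rose outside the myocardium. The 9 macrophage markers were at 664 to 1379 CPM and 1372 to 2194 CPM, with 4 risen and 2 fallen. Their part in the members' ratios was not tested.

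Within the myocardium, spots that touch another spot on the hexagonal grid were compared with spots 3 or more steps away. The same roles separated. Of 31 members tested (Gbp8, Ido1 and Ubd were too low), 21 were higher next to the other spots and 0 were lower, where 18.2% of the 11919 genes tested rose. The median log2 ratio was 0.72 over the members and 0.01 over all genes.

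The regulators rose near the border in 4 of 4 cases, GBPs in 7 of 8, peptide loading genes in 3 of 3, proteasome genes in 3 of 5, the class I molecule in 2 of 3 and IRGs in 2 of 8 (Ifi47 by 1.40 and Irgm1 by 0.76). Socs1 was at 27.4 and 17.9 CPM in border spots and 14.9 and 11.4 CPM in remote spots of the ICI-alone sections. In the antibody sections it was at 289 and 299 CPM in border spots and at 27.5 and 79.5 CPM in remote spots. The border was higher in each of the 4 sections, and by more in the antibody sections (a difference that was not tested), and the fitted log2 ratio was 1.92 ± 0.42 (adjusted p = 0.0137). F830016B08Rik was at 2658, 539, 4060 and 4178 CPM in border spots and at 3461, 282, 3856 and 4600 CPM in remote spots, with no common direction (0.11, adjusted p = 0.710).

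**Figure D3:**
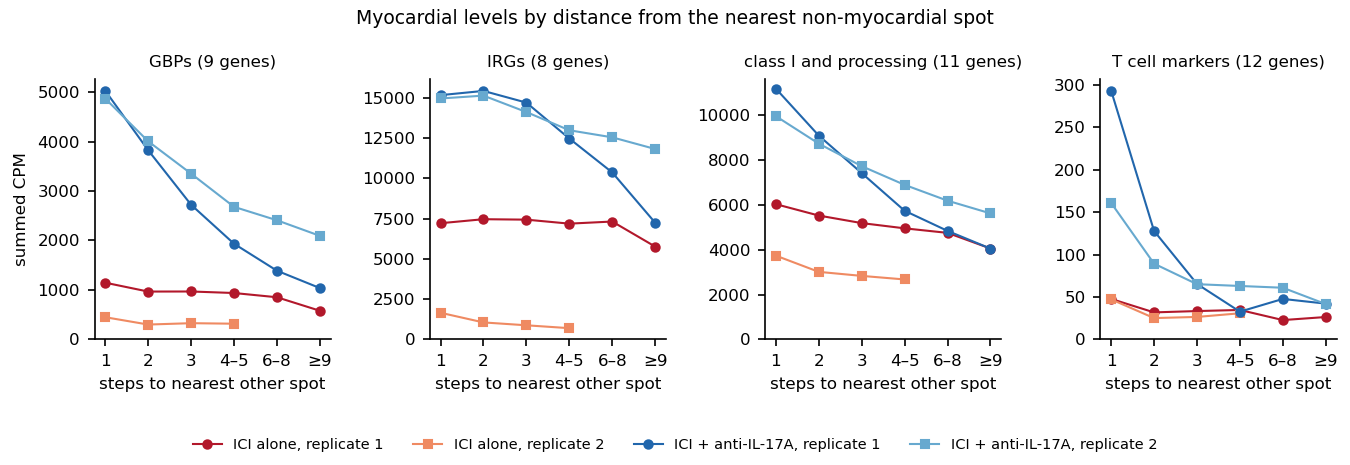
Summed CPM of the GBPs, the IRGs, 11 class I and processing genes and 12 T cell markers in myocardial spots by steps to the nearest other spot, 1 line per section. GBPs of antibody replicate 1 go from 5026 CPM at 1 step to 1039 CPM at 9 or more steps.

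By distance, the summed GBPs of antibody replicate 1 went from 5026 CPM at 1 step to 1934 CPM at 4 to 5 steps and 1039 CPM at 9 or more steps. Those of antibody replicate 2 went from 4869 to 2680 and 2094 CPM. The ICI-alone sections were lower at each distance they shared, with 1147 CPM at 1 step and 938 CPM at 4 to 5 steps in replicate 1 and 449.5 and 318 CPM in replicate 2. The IRGs differed between sections. In antibody replicate 1 they were at 15157 CPM at 1 step, 14694 CPM at 3 steps and 7241 CPM at 9 or more steps, and in antibody replicate 2 at 14950.4, 14109 and 11816 CPM. In ICI-alone replicate 1 they were at 7212 CPM at 1 step, 7433 CPM at 3 steps and 7185 CPM at 4 to 5 steps. In ICI-alone replicate 2 they went from 1656 CPM at 1 step to 878 CPM at 3 steps and 699.6 CPM at 4 to 5 steps. From 1 step to 3 steps the T cell markers went from 47.8 to 33.5 CPM and from 47.3 to 26.5 CPM in the ICI-alone sections, and from 293 to 65.4 CPM and from 161 to 65.1 CPM in the antibody sections. Near the border 8 of 9 T cell markers tested rose, 4 of 4 NK cell markers, 7 of 9 macrophage markers and 5 of 8 fibroblast markers. Of 8 cardiomyocyte markers tested, 7 fell and 0 rose (median log2 ratio -0.65). From 1 step to 3 steps the summed cardiomyocyte markers, Myh6 included, went from 67105 to 86441 and from 66326 to 83350 CPM with ICI alone. With the antibody they went from 57505 to 88596 and from 55917 to 73602 CPM. Border spots thus held less heart muscle RNA. The part of these cell types in the members' gradients was not tested. Without antibody replicate 2, 0 of the members and 558 of all genes (4.72%) passed.

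The treatment comparison asked how these genes differed between the antibody and the ICI-alone sections, first in the myocardial spots. In myocardial spots nearly all members were measured higher in the antibody sections, but the spread between sections was wide. The median log2 fold change of antibody over ICI alone was 1.31 over the 33 members and 0.02 over all genes, and 32 members were above 0, with Psme2 the exception at -0.04. For 29 of the 33, both antibody sections lay above both ICI-alone sections, which held for 23% of all genes. In edgeR's quasi-likelihood test 0 members reached an adjusted p under 0.05, where 0.0599% of all genes did (9 of 15018), and 22 members had an unadjusted p under 0.05, where 12.5% of all genes did. With the batch as a block, as the labels' shared batch numbers allow, 12 members rose, where 1.64% of all genes did: Gbp2, Gbp3, Gbp4, Gbp5, Gbp6, Gbp7, Ifi47, Irf1, Socs1, Psmb9, Tap1 and Ido1. DESeq2 called 7, where it called 2.09% of all genes.

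**Figure D4:**
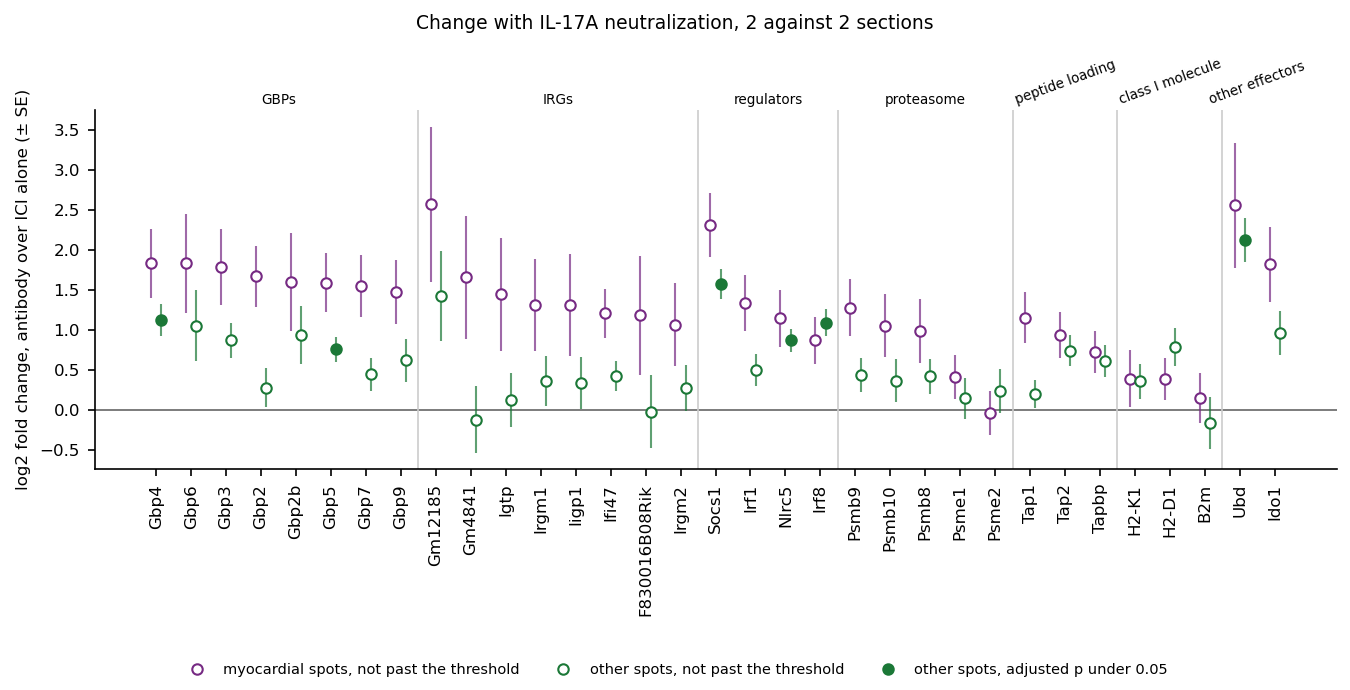
Log2 fold change of the antibody sections over the ICI-alone sections with its standard error, for the 33 tested members in myocardial and other spots. The myocardial estimates of the GBPs lie between 1.47 and 1.84, and filled symbols mark the 6 members that passed in other spots.

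Among the regulators, Socs1 was at 20.1 and 14.0 CPM in the myocardium of the ICI-alone sections and at 48.7 and 123 CPM in that of the antibody sections, a log2 fold change of 2.31 ± 0.40 (adjusted p = 0.125, and 0.00642 with the block). The groups did not overlap, and the antibody sections themselves differed. Irf1 was at 147 and 92.6 CPM against 201 and 406 CPM (1.34 ± 0.35, adjusted p = 0.212, and 0.0478 with the block). Irf8 was at 42.3 and 40.8 CPM against 49.7 and 103 CPM (0.87, adjusted p = 0.304), and Nlrc5 had 1.15.

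All 8 GBPs tested had a similar myocardial fold change, from 1.47 for Gbp9 to 1.84 for Gbp4. Gbp2 was at 227 and 105 CPM with ICI alone and at 401 and 659 CPM with the antibody (1.67 ± 0.38, adjusted p = 0.184, and 0.0217 with the block). Gbp6 was at 365 and 73.2 CPM against 623 and 944 CPM (1.83 ± 0.62, adjusted p = 0.302, and 0.0482 with the block). In both genes ICI-alone replicate 2 was the lowest section and antibody replicate 2 the highest.

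The IRGs ranged from 1.07 for Irgm2 to 2.58 for Gm12185, with a median of 1.31. Gm12185 was at 79.5 and 4.02 CPM with ICI alone and at 170 and 337 CPM with the antibody (2.58 ± 0.97, adjusted p = 0.348). Igtp was at 1615 and 237 CPM against 2188 and 2861 CPM (1.45 ± 0.71, adjusted p = 0.453), and F830016B08Rik at 3183 and 409 CPM against 3826 and 4337 CPM (1.18 ± 0.74, adjusted p = 0.576). For all 3 genes, on the log2 scale, the 2 ICI-alone sections were further apart than ICI-alone replicate 1 was from the antibody sections. Of the IRGs, Ifi47 alone passed with the block (1.20, adjusted p = 0.0441).

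The class I pathway had smaller fold changes in the myocardium. Psmb9 was at 169 and 74.4 CPM against 253 and 340 CPM (1.28 ± 0.35, adjusted p = 0.236), and Tap1 at 142 and 74.9 CPM against 193 and 292 CPM (1.16 ± 0.32, adjusted p = 0.233). With the block their adjusted p was 0.0328 and 0.0441. Psmb10 had 1.06, Psmb8 0.99, Tap2 0.94, Tapbp 0.73 and Psme1 0.42. The class I molecule moved least. H2-K1 was at 343 and 172 CPM against 251 and 426 CPM (0.39 ± 0.36, adjusted p = 0.717) and B2m at 3064 and 1829 CPM against 2497 and 2940 CPM (0.15 ± 0.31, adjusted p = 0.896). In both, as in H2-D1 and Psme2, the groups overlapped.

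The myocardial fold changes were unequal in the 2 batches. Antibody over ICI alone had a median log2 ratio over the members of 0.43 in batch 1 and 2.19 in batch 2, and was above 0 for 30 and 32 of the 33 members. The members' median log2 fold change moved with the section left out. It was 2.19 and 0.76 without ICI-alone replicates 1 and 2, and 1.51 and 0.92 without antibody replicates 1 and 2. The medians over all genes were 0.0007 to 0.03. Such fits leave 1 section in a group, so no calls are given for them. T cell markers, at 35.2 and 35.5 CPM with ICI alone and 61.5 and 78.3 CPM with the antibody, were measured higher too, though 0 of 12 passed. Neutrophil markers, at 76.8 and 110 CPM with ICI alone and 14.7 and 26.9 CPM with the antibody, had 2 of 7 genes that fell. Fibroblast markers were at 3547 and 7783 CPM against 1781 and 2339 CPM with 0 of 8 passed, and atrial markers at 1221 and 2985 CPM against 242 and 9478 CPM. The part of these cell types was not tested.

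In the other spots 6 of the 33 members rose with the antibody and 0 fell, where 3.82% of the 17992 genes tested rose (687 genes, with 660 fallen; with library size in place of TMM these became 2430 and 255). The median log2 fold change was 0.45 over the members and -0.01 over all genes. Both antibody sections lay above both ICI-alone sections for 24 of the 33 members and below for 0. Of all genes 35.9% lay above and 34.7% below. The 6 were 3 of 4 regulators, 2 of 8 GBPs and Ubd. Of the IRGs 0 of 8 passed, of the proteasome genes 0 of 5, of the peptide loading genes 0 of 3 and of the class I molecule 0 of 3 (edgeR). An unadjusted p under 0.05 was reached by 14 of the 33 members, near the 39.2% of all genes that reached it. DESeq2 called 10 members, where it called 10.3% of all genes.

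Socs1 was at 207 and 208 CPM with ICI alone and at 654 and 583 CPM with the antibody, a log2 fold change of 1.58 ± 0.18 (adjusted p = 0.0482). Irf8 was at 206 and 201 CPM against 453 and 414 CPM (1.09 ± 0.17, adjusted p = 0.0482), and Nlrc5 at 101 and 100.5 CPM against 174 and 194 CPM (0.87 ± 0.15, adjusted p = 0.0482). The sections of each group lay close together and the groups far apart. Ubd was at 2.23 and 3.34 CPM against 11.3 and 13.3 CPM (2.13 ± 0.28, adjusted p = 0.0482). Gbp4 was at 373 and 305 CPM against 729 and 749 CPM (1.13 ± 0.20, adjusted p = 0.0487), and Gbp5 at 197 and 194 CPM against 335 and 326 CPM (0.76 ± 0.16, adjusted p = 0.0488). All 6 are thus near the threshold of 0.05, and each was lost in 6 or more of 17 alternatives.

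Members that did not pass differed in how their sections lay. Gbp6 was at 503 and 223 CPM against 557 and 951 CPM (1.05, adjusted p = 0.134). Tap2 was at 412 and 373 CPM against 667 and 647 CPM (0.74 ± 0.19, adjusted p = 0.0587), without overlap. Groups that did not overlap were common among all genes in these spots. F830016B08Rik was at 2619 and 1449 CPM against 1320 and 2696 CPM (-0.02), Igtp at 2441 and 1581 CPM against 1829 and 2554 CPM (0.12), and B2m at 5550.4 and 4964 CPM against 5056 and 4336 CPM (-0.16), all with overlapping groups.

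With the batch as a block, 0 of the members and 0 of all genes passed in the other spots. Leaving out 1 section left 1 in its group, so only fold changes are given for those fits. The members' median log2 fold change was 0.70 and 0.47 without ICI-alone replicates 1 and 2. It was 0.55 and 0.41 without antibody replicates 1 and 2, and the medians over all genes were -0.02 to 0.01. The T cell markers of these spots rose in 8 of 12 cases, from 141 and 110 CPM to 400.1 and 338 CPM, the 8 fibroblast markers fell in 6 cases, from 12422 and 24525 CPM to 5709.9 and 4641 CPM, and the 9 macrophage markers fell in 3 cases, from 1925 and 2194 CPM to 1372 and 1733 CPM. Dendritic cell markers were at 80.8 and 70.8 CPM against 365 and 214 CPM, with 3 of 6 risen. The part of these cell types in the members' changes was not tested.

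Over whole sections, positions combined, 0 of the 33 members passed, where 11.8% of all genes did. An unadjusted p under 0.05 was reached by 6 members and by 35.2% of all genes. The median log2 fold change was 0.34 over the members and 0.09 over all genes. Gm12185 came nearest, at 80.0 and 22.8 CPM with ICI alone and 152 and 308 CPM with the antibody (2.16 ± 0.58, adjusted p = 0.0536). Socs1 was at 132 and 156 CPM against 184 and 227 CPM (0.51, adjusted p = 0.112). Both antibody sections lay above both ICI-alone sections for 14 members, where 36% of all genes did so. They lay below for 3 members, where 32.2% of all genes did: Gbp2, Ifi47 and B2m, with B2m at 4469 and 3983 CPM against 3055 and 3245 CPM (-0.42, adjusted p = 0.390). The share of myocardial spots differed between the groups, and its part in the whole-section values was not tested. With the batch as a block 1 member rose, Ubd (0.89, adjusted p = 0.0420), where 8.08% of all genes rose.

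Whether the position ratio itself differed between treatments was tested as an interaction. For 30 of the 33 members the fitted interaction was below 0, meaning that the ratio of other over myocardial spots was lower with the antibody, with a median of -0.97 against -0.22 over all genes. In edgeR 0 members passed, as did 0% of the 18290 genes tested. An unadjusted p under 0.05 was reached by 12 members and by 2286 genes (12.5% of all genes). DESeq2 called 1 member, Gm4841, and 17 genes (0.0929% of all genes). Gm4841 had the fitted interaction furthest below 0, -2.59 ± 0.75 (adjusted p = 0.392), followed by Gm12185 at -2.20, Igtp at -2.02, F830016B08Rik at -2.02, Gbp2 at -1.60 and Iigp1 at -1.55. The members' median interaction was -1.39 and -0.54 without ICI-alone replicates 1 and 2, and -1.15 and -0.36 without antibody replicates 1 and 2. In the same order the medians over all genes were -0.25, -0.25, -0.19 and 0.03. Such fits leave 1 section in a group, so no calls are given for them.

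The ligand and the signalling genes upstream gave a reference for the members. Ifng, which encodes interferon gamma itself, was at 14.0 and 10.3 CPM in the other spots with ICI alone and at 67.6 and 56.0 CPM with the antibody, and it rose by 2.35 ± 0.20 (adjusted p = 0.0482). It rose over whole sections too, from 8.75 and 7.75 CPM to 17.4 and 17.4 CPM (1.07 ± 0.16, adjusted p = 0.0219). In myocardial spots it was at 0.819 and 0.769 CPM against 2.93 and 6.06 CPM (2.47, adjusted p = 0.125). Of the 12 signalling genes that are not members, 2 rose in other spots with the antibody, Ifng and the receptor kinase gene Jak2 (0.83). Outside against inside the myocardium 6 of the 12 rose, Ifng by 3.58 and Jak2 by 1.54 among them, and the receptor chain Ifngr2 fell by 0.73 on the log2 scale.

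Of 10 other interferon-gamma-induced genes, 6 rose in other spots with the antibody, where 3.82% of all genes rose. Cxcl9, a chemokine that draws T cells, went from 11.8 and 12.2 CPM to 47.0 and 66.6 CPM (2.24 ± 0.20, edgeR adjusted p = 0.0482). Cxcl10 rose by 1.04 and Cd274, which encodes PD-L1, by 1.12. With the batch as a block 0 of all genes passed in other spots, so Ifng, Jak2 and these genes did not pass there. Outside the myocardium 9 of the 10 rose, where 28.3% of all genes did. Of 17 further class I genes tested, 2 rose with the antibody in other spots, H2-Q4 (0.86) among them, and 1 fell. Of 14 constitutive proteasome subunits 0 passed with the antibody in whole sections, myocardial spots or other spots. All 14 were measured below 0 over whole sections (median -0.33) and in other spots (median -0.44), and 5 of 14 above 0 in myocardial spots (median -0.09). Outside against inside the myocardium 1 of them rose. In myocardial spots 0 genes of these 4 lists passed.

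Counts per spot depend on depth, so each spot was also thinned to 5000 UMIs, which left out 0 to 104 myocardial and 1 to 6 other spots per section. Of the 5000 UMIs, the 17 GTPase genes (GBPs and IRGs) gave a mean of 41.6 and 7.88 in the myocardial spots of the ICI-alone sections and of 57.9 and 81.3 in those of the antibody sections. The group means were 24.7 ± 23.8 and 69.6 ± 16.5 (SD between sections, n = 2). In other spots they were 46.2 ± 12.9 and 72.7 ± 15.5. The 11 class I and processing genes gave 21.3 ± 7.33 and 31.0 ± 6.79 in myocardial spots and 41.1 ± 3.11 and 57.1 ± 2.71 in other spots. The sections of the groups did not overlap for the GTPases at either position or for the class I genes in other spots. For the myocardial class I genes they did, with 26.5 UMIs in ICI-alone replicate 1 and 26.2 UMIs in antibody replicate 1. The GTPases in other spots separated only by threshold. With Myh6 at 0.5% they overlapped, at 58.1 and 42.0 UMIs with ICI alone and 55.4 and 69.8 UMIs with the antibody. With 2 against 2 sections an exact permutation test cannot go below p = 0.333, so none is given.

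**Figure D5:**
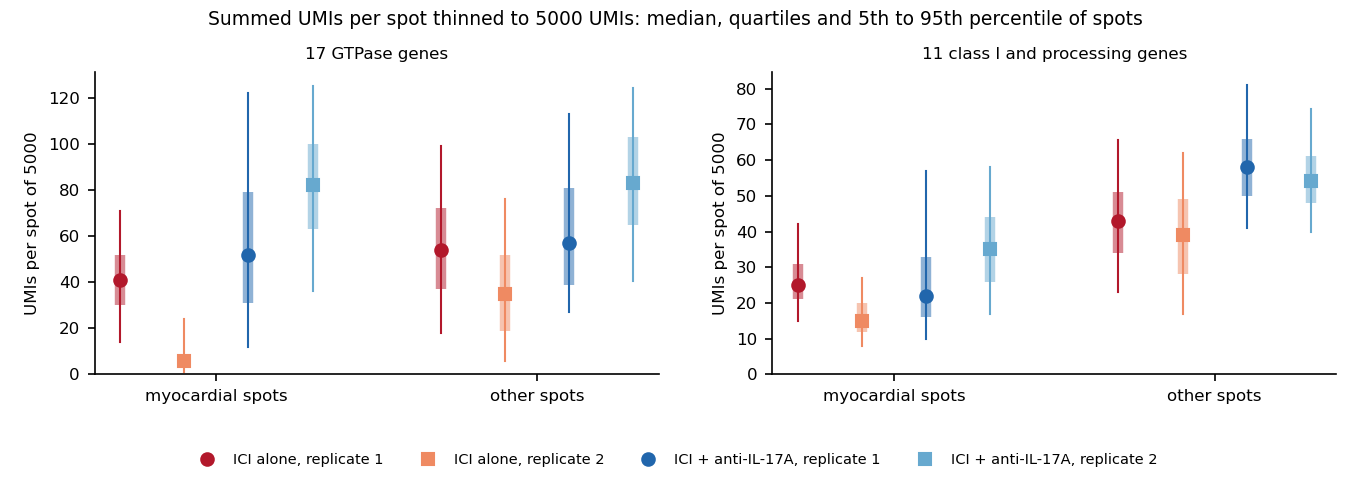
UMIs of the 17 GTPase genes and of the 11 class I and processing genes per spot thinned to 5000 UMIs, by section and position, with the median, the quartiles and the range from the 5th to the 95th percentile of spots. The myocardial spots of ICI-alone replicate 2 have a GTPase median of 6 UMIs, against 41, 52 and 82 in the other sections.

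The spots of a section varied too. In the myocardium of antibody replicate 1 the GTPase sum ran from 12 UMIs at the 5th percentile to 122 at the 95th, in that of antibody replicate 2 from 36 to 125, and in that of ICI-alone replicate 2 from 1 to 24. Spots with at least 1 UMI of Igtp after thinning were 99.3%, 54.5%, 97.9% and 99.7% of the myocardial spots of the 4 sections. Igtp was thus found in nearly all myocardial spots of every section but ICI-alone replicate 2. The share for Socs1 was 9.0%, 7.03%, 15.7% and 37.7% in myocardial spots (95% Wilson interval of the last 35.6% to 39.8%, counting error only) and 43.4%, 44.8%, 93.7% and 90.1% in other spots (90.1% with an interval of 86.9% to 92.5%). Without thinning these shares were 30.3%, 17.8%, 31.8% and 58.9% and 81.8%, 76.5%, 99.5% and 98.9%. Ifng was found in 4.67%, 3.47%, 24.4% and 16.4% of the thinned other spots.

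Over the myocardial spots of a section the GTPase sum and the class I sum went up and down together, with Spearman correlations of 0.31, 0.38, 0.69 and 0.48 in ICI-alone replicates 1 and 2 and antibody replicates 1 and 2 (797 to 2115 spots). The correlation of the GTPase sum with the T cell markers was 0.003, 0.05, 0.16 and -0.007. With the macrophage markers it was -0.10, 0.04, 0.38 and 0.13. All of these are descriptions of spots that share a library and neighbours. In antibody replicate 1 the mean GTPase sum was 54.9 UMIs in myocardial spots with 0 T cell marker UMIs and 87.6 UMIs in those with 3 or more (40 spots). In antibody replicate 2 the same means were 81.3 and 76.9 UMIs (49 spots), so the 2 sections differed in direction. The class I sum was higher in the spots with 3 or more in both, at 23.9 and 45.2 UMIs in replicate 1 and 34.3 and 49.9 UMIs in replicate 2.

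Moran's I measures how much neighbouring spots resemble each other, with 0 for no pattern. In the authors' deposited table the median over all genes was 0.0180, 0.0155, 0.0179 and 0.00869 in the 4 sections. In the authors' deposited table Socs1 had 0.719, 0.668, 0.827 and 0.617, and Gbp2 had 0.771, 0.788, 0.731 and 0.570. F830016B08Rik, whose position ratio did not pass, had 0.736, 0.715, 0.785 and 0.593 in the authors' deposited table, so it too was patterned in every section. Psme2 was near 0 in the authors' deposited table, from -0.00406 to 0.00709, with deposited adjusted p of 0.456 or more.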

How the data were processed

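Visium data of 4 formalin-fixed heart sections, 2 per group, were analysed. The deposited counts are UMIs per gene and spot, made with Space Ranger 2.1.0 per the file headers, on mm10 per the submitters' processing notes, which also name Seurat 5.1.0. The authors' deposited tables also give Moran's I per gene, a spatial score, and its adjusted p-value; how these were computed is not stated there.

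Members and gene lists were chosen with earlier results of these data known. All members were named whatever their values. Of the pathway lists, fixed genes were named, plus up to 3 per list with the smallest p. One gene of these lists is not reported here. Symbols were matched exactly.

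UMIs were summed per section and position (Myh6 at 1% of a spot's UMIs) and tested with edgeR 4.0.16 (quasi-likelihood test, TMM, filterByExpr, Benjamini-Hochberg adjustment at 0.05). Position, border and interaction fits used 8 sums with the section as a block, and Myh6 was left out. CPM are therefore scaled differently in the position and treatment comparisons. Log ratios of single sections add 0.5 CPM. The fits were tested on simulated data with the same spread for all genes of a comparison. The treatment fits recovered 60%, 70% and 44% of 2-fold changes in whole sections, myocardial spots and other spots. They recovered 100% of 4-fold changes. The position and border fits recovered 99% and 100% of 2-fold changes. Members whose sections of a group differ more than this spread are not covered by these shares. Spots were thinned at random to 5000 UMIs. Shares have 95% Wilson intervals, which cover counting error only. Alternatives used DESeq2 1.42.0, other scalings, filters, thresholds and spot sets, and left out each section. Leaving out spots by atrial genes other than Nppa, and crossing the batch numbers, were chosen after seeing the data.

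The labels give a shared batch for same-numbered sections, so the numbers pair them. Same-batch deviations from the group means correlated at 0.18 over whole sections, 0.24 in myocardial spots and -0.32 in other spots. Promoters came from RefSeq (GRCm38.p6).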

Additional observations from a re-analysis of the deposited data

Results flagged for a closer look

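For 4 members the ratio of other over myocardial spots, with CPM scaled by library size alone, lay in opposite directions in the 2 groups, in both sections of each. The difference itself was tested as an interaction in edgeR, and none of the 4 passed. The fitted interaction was -1.55 for Iigp1 (adjusted p = 0.399), -2.02 for Igtp (adjusted p = 0.392) and -2.59 for Gm4841 (adjusted p = 0.392). These 3 IRGs were higher outside the myocardium with ICI alone and lower outside it with the antibody. With TMM scaling the ratio of Iigp1 in ICI-alone replicate 1 was -0.12, so its sections no longer separated by direction. Psme2 had an interaction of 0.13 (adjusted p = 0.889) at levels of 1.96 to 3.12 CPM. With TMM its section ratios were -0.22, -0.56, -0.22 and -0.098, all below 0, so it too no longer separated.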

How the results depend on the processing

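The number of members past the threshold moved with the processing in every treatment comparison. With the replicate block, 3839 genes (2229 without) passed over whole sections, 623 (9 without) in myocardial spots and 0 (1347 without) in other spots. Of all genes tested these were 20.4% (11.8%), 4.15% (0.0599%) and 0% (7.49%). Members past it numbered 1 (0), 12 (0) and 0 (6). With the numbers crossed in other spots, 6731 genes (37.4% of all genes) and 16 members passed. DESeq2 called 3, 7 and 10 members in those comparisons, where it called 17.6%, 2.09% (314 genes) and 10.3% of all genes. In the interaction it called 17 genes (0.0929% of all genes) and 1 member. With library size alone, 2 members passed over whole sections, where 9.93% of all genes did. It gave 0 genes in myocardial spots, and 2685 genes (14.9% of all genes) and 13 members in other spots. No filter gave 26 and 692 genes in myocardial and other spots. A minimum of 10 CPM gave 821 genes over whole sections, 0 in myocardial spots, and 0 genes and 0 members in other spots. Thinning sums gave 0 genes in myocardial spots and 0 genes and 0 members in other spots. Atrial-rich spots are those in which atrial genes, Nppa included, gave over 1% of the UMIs. They numbered 63 and 536 in the ICI-alone sections, and 2 and 172 in the antibody sections. Without atrial-rich spots, 1480 genes passed over whole sections, and 8 genes and 0 members in other spots. Leaving out spots by atrial genes other than Nppa instead gave 2104 genes (11.2% of all genes) and 0 members over whole sections. In other spots it gave 1359 genes (7.56% of all genes) and 6 members. Without the 20 most abundant genes 1 member passed over whole sections, where 13.5% of all genes did. Myh6 at 0.5% gave 20 genes in myocardial spots. In other spots it gave 5508 genes (31.7% of all genes) and 10 of the 33 members, near that share. Myh6 at 2% gave 4 genes in myocardial spots and 0 genes and 0 members in other spots. Leaving out 1 section gave 329 to 4479 genes and 0 to 9 members over whole sections, 191 to 1001 and 4 to 25 in myocardial spots, 0 to 1089 and 0 to 6 in other spots, 0 to 3048 and 0 to 4 in the interaction, and 558 to 3844 and 0 to 22 at the border. The cause of these shifts was not tested.

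Members that changed direction did not pass in the reported comparison. In myocardial spots Psme2 went to 0.057 with library size, 0.11 thinned and 0.11 at Myh6 0.5%. In other spots Gm4841 went to 0.20 with library size, 0.12 at 10 CPM, 0.061 thinned and 0.47 at Myh6 2%, F830016B08Rik to 0.30, 0.22, 0.16 and 0.56, and to 0.056 without atrial-rich spots, B2m to 0.15 with library size, 0.081 at 10 CPM and 0.037 thinned, and Igtp to -0.22 at Myh6 0.5%. For position, Myh6 at 0.5% gave -0.048 for Gbp6, -0.27 for Iigp1, -0.20 for Irgm2 and -0.37 for Gm4841, Iigp1 was -0.017 without atrial-rich spots, Gm12185 was 0.066 at Myh6 2% and 0.16 with library size, and Psme1 was 0.064 with library size. The interaction of Psme2 went to -0.27 at Myh6 0.5% and -0.015 without atrial-rich spots, and its border ratio to 0.095 with library size. Leaving out 1 section gave, in myocardial spots, -0.23 to 0.54 for B2m and -0.088 to 0.95 for H2-K1; in other spots, -0.59 to 0.51 for Gm4841, -0.64 to 0.53 for F830016B08Rik and -0.16 to 0.53 for Igtp. For position it gave -0.22 to 0.38 for Gbp6, -0.48 to 0.30 for Iigp1, -0.27 to 0.72 for Igtp, -0.37 to 0.28 for Irgm2, -0.49 to 0.75 for Gm4841 and -0.81 to 0.17 for Gm12185. For the interaction it gave -0.078 to 0.36 for Psme2 and -1.42 to 0.18 for Socs1, and at the border -0.25 to 0.36 for Psme2, -0.15 to 0.28 for F830016B08Rik and -0.19 to 0.63 for Gm12185. A lone section was assumed to vary like the others. The class I sum per thinned other spot moved to 45.3 and 36.8 UMIs with ICI alone at Myh6 0.5% and 2%, and to 51.5 UMIs with the antibody at Myh6 2%.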
